A study of Mus musculus with 8 samples.

Results

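Kinetochore genes were measured in hematopoietic stem cells of mice treated with G-CSF, a growth factor for neutrophils that also moves stem cells from marrow into blood. The set holds 39 genes that were listed by name, with earlier results of these data known. They cover the CENP proteins, the KMN network (the complexes of Knl1, Mis12 and Ndc80), the SKA complex, the spindle checkpoint and shugoshin. Of the 39 genes, 38 had a probe set annotated to them alone and are part of the 19938 genes compared. Each of the 38 had exactly 1 such probe set. The remaining gene, Hjurp, has a probe set annotated with a second symbol too, 6430706D22Rik, which RefSeq lists as a synonym of Hjurp, and was left out of the counts by the rule of 1 symbol per probe set.

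The kinetochore is the protein assembly on each centromere that binds spindle microtubules during mitosis. Centromeric chromatin carries the histone variant CENP-A, on which an inner network of CENP proteins is built; the KMN network grips the microtubule from there, the SKA complex steadies that grip, and the checkpoint proteins hold back anaphase until every chromosome is attached. Many of these genes are transcribed mainly in cycling cells, in the G2 and M phases, so their transcripts are usually low in a resting stem cell population.

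Bone marrow cells had been sorted as KSL SLAM cells, that is lacking lineage markers, CD48 and CD41 and carrying c-Kit, Sca-1 and CD150. The treated group received G-CSF at 125 mcg/kg, given 2 times daily by subcutaneous injection, and the control group received PBS; both were taken at 36 hours. There were 4 independent samples per group, each hybridised to its own MoGene 1.0 ST array, and each pooled cells of 5 to 10 mice, so values are averages over mice. Strain, age and sex were not given in the sources used here. In such bulk samples, more cells that express a gene and more RNA per cell cannot be told apart.

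PBS replicate 3 stood apart, with an interquartile range of 1.68 over all genes against 2.42 to 2.80 on the other 7 arrays and a correlation with them of 0.88 to 0.90. It was kept, and results are given without it where they rest on it. The sorted identity was checked on listed markers. Kit, the gene of c-Kit, had log2 intensities of 10.45 to 10.94 in the PBS arrays and 10.24 to 10.49 in the G-CSF arrays, and the summed intensity of 12 stem cell markers was 5254 to 9617 and 6341 to 7949. No marker can read 0 on this array, and Ly6a, the gene of Sca-1, was not analysed here. The 18 measured neutrophil and granulocyte progenitor markers summed to 8485 to 18452 in the PBS arrays and 19683 to 47977 in the G-CSF arrays, without overlap, and all 18 had a positive log2 fold change. Their part in the results below was not tested. Monocyte markers (8 measured) summed to 798 to 2978 and 1025 to 2556, B cell markers (7) to 366 to 536 and 376 to 458, and T and NK cell markers (9) to 251 to 382 and 248 to 320. Erythroid markers (5) summed to 1083 to 5577 and 626 to 3270, and megakaryocyte markers (6) to 732 to 2049 and 565 to 1062. Such sums are led by the brightest markers. Positive log2 fold changes were found in 3 of 12 stem cell, 6 of 8 monocyte and 1 of 7 B cell markers. They were found in 1 of 9 T and NK cell, 1 of 5 erythroid and 2 of 6 megakaryocyte markers. In these lists, only Ccr2 (1.88-fold) and Ppbp (0.42-fold) did not overlap between groups, against 3.37% higher and 2.78% lower of all genes. Itga2b, the gene of CD41, had log2 intensities of 7.06 to 7.72 in the PBS arrays and 7.185 to 7.74 in the G-CSF arrays.

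After G-CSF, Cenph, a subunit of the inner centromere network, rose 4.45-fold, and it was the only member past the threshold. In order of p, Sgo1, which protects centromeric cohesion, Cenpe, the kinesin motor of the kinetochore, and Ska2, of the SKA complex, followed with 1.99-fold, 1.91-fold and 1.70-fold higher means that did not pass. By fold, Bub1 (2.75), Bub1b (2.17) and Nuf2 (2.14) came next after Cenph, and they did not pass either. Of the 38 members, 36 had a positive log2 fold change, against 41.7% of all genes, and their median was 0.52, against -0.07 for all genes. Among genes with a mean log2 intensity above that of the median gene, the median log2 fold change was 0.13. The 30 members among these brighter genes had a median of 0.52, and all 30 were positive. A mean more than 1.5-fold higher was seen in 17 members, against 6.58% of all genes, and in 12 members without PBS replicate 3, against 4.03%.

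By limma with Benjamini-Hochberg adjustment over all 19938 genes (threshold 0.05), 1 of 38 members was higher, 0 were lower and 37 did not pass; 0.0953% of all genes were higher and 0% lower. At an unadjusted p under 0.05, 11 members were higher and 0 lower, against 6.07% and 2.94% of all genes. All 4 G-CSF values lay above all 4 PBS values in 7 members and below them in 0, against 3.37% and 2.78% of all genes. Without PBS replicate 3, 34 members were positive, and the positive share of all genes in that fit was not counted. The member median was then 0.43, against -0.02 for all genes. In the same fit, 11 members were higher at an unadjusted p under 0.05 (5.64% of all genes). Every G-CSF value lay above the 3 PBS values in 7 members (4.76% of all genes).

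**Figure D1:**
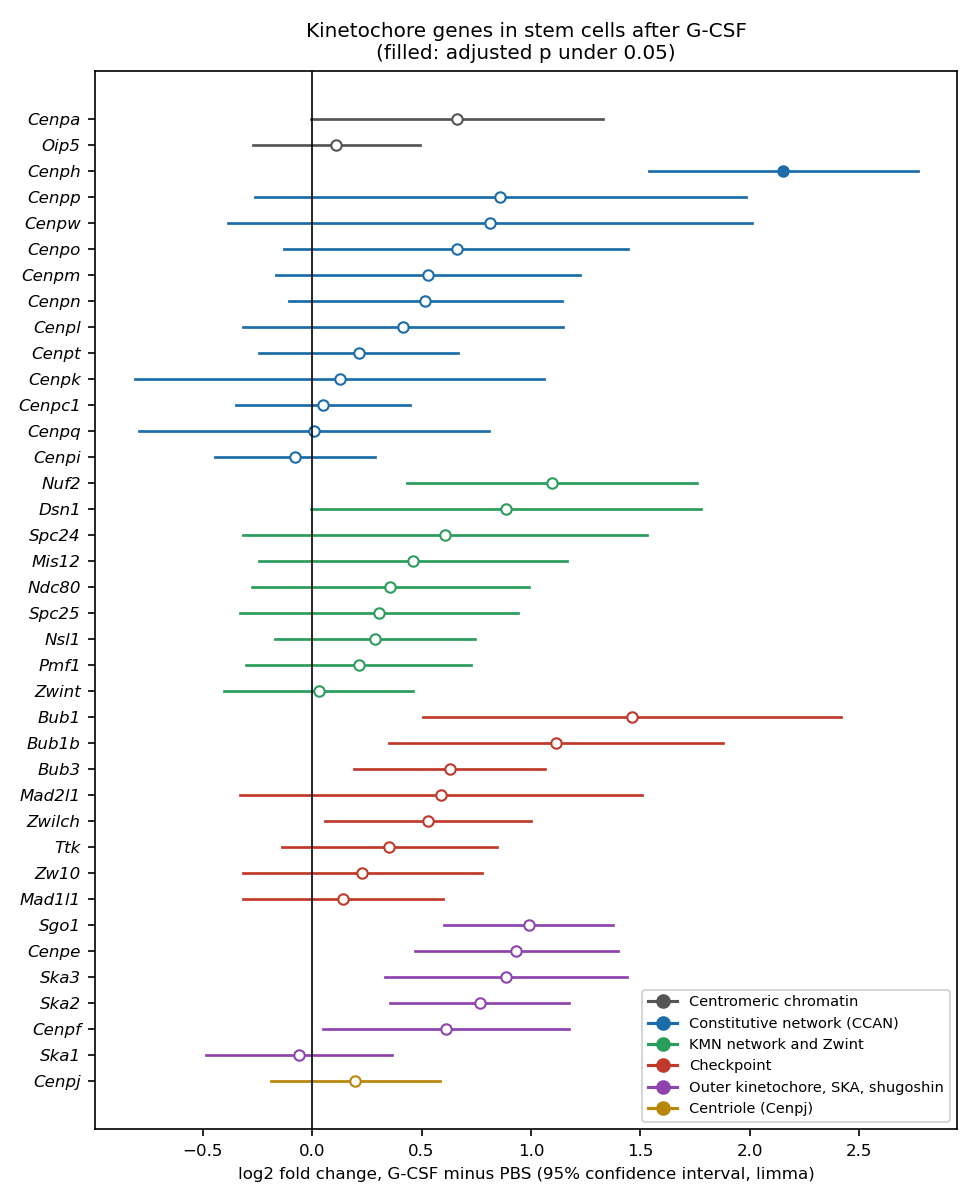
Log2 fold change of each of the 38 genes, G-CSF minus PBS, with the 95% confidence interval from limma (4 arrays per group), coloured by role; a filled point marks an adjusted p under 0.05. Cenph at 2.15 is the only filled point, and Cenpi and Ska1 alone lie below 0.

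The 4 members with the lowest p were Cenph, Sgo1, Cenpe and Ska2, and the 250 bases before their listed transcription starts are printed to show what these start sites look like. They are from RefSeq, build GRCm38.p6, 5′ to 3′ on the gene's strand, in lower case. Capitals mark CCAAT, the motif named CCAAT box, on either strand. Cenph lies at chr13:100775900-100776149 on the minus strand, Sgo1 at chr17:53689316-53689565 on the minus strand, Cenpe at chr3:135212313-135212562 on the plus strand and Ska2 at chr11:87109011-87109260 on the plus strand.
Cenph: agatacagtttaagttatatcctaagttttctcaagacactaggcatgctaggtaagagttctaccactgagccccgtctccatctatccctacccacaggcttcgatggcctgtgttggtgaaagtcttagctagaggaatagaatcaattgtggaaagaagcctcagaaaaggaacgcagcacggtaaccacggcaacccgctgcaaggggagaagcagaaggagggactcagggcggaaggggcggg
Sgo1: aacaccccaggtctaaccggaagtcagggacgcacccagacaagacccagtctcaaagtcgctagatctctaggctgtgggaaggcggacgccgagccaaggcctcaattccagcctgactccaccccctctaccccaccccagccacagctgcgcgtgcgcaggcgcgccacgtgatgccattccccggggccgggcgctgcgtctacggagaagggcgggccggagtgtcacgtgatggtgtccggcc
Cenpe: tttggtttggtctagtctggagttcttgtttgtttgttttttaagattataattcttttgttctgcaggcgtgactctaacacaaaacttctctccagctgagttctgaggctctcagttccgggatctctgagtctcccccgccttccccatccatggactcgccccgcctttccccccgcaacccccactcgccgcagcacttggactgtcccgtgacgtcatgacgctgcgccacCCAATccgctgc
Ska2: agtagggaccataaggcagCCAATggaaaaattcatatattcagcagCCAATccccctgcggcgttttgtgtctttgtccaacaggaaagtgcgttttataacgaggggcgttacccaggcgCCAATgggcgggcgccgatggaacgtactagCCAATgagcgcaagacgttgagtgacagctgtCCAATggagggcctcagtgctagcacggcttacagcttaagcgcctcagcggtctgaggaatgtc
The Ska2 window holds 5 CCAAT motifs, that of Cenpe holds 1, and none is seen in the printed bases of Cenph and Sgo1, whose CCAAT match begins at or beyond the start. Promoter windows of 300 bases (250 before and 50 after the start, 1 start per gene) were found for 34 of the 38 members. CCAAT was in 23 of these 34 (67.6%), against 37.9% of 27025 promoters. The cell cycle homology element, searched as TTTGAA on both strands, was in 14 (41.2%), against 18.1%. The E2F motif, searched as TTTGGCGC or TTTCGCGC on both strands, was in 1 (2.94%), against 0.833%. A letter match is a description and not a binding site, and none of Cenph, Sgo1, Cenpe and Ska2 held TTTGAA in its window.

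Centromeric chromatin was represented by Cenpa, the centromeric histone itself, and Oip5, a subunit of the MIS18 complex that licenses its loading. Cenpa had log2 intensities of 7.74, 7.85, 6.40 and 7.71 in PBS replicates 1 to 4 and 8.42, 7.93, 8.06 and 7.95 in G-CSF replicates 1 to 4. All G-CSF arrays were above all PBS arrays, by a gap of 0.08, and PBS replicate 3 was far below the other PBS arrays. The log2 fold change was 0.66 ± 0.30 SE (limma adjusted p = 0.551), and 0.32 without PBS replicate 3. Oip5 read 4.77, 4.78, 4.79 and 4.85 in the PBS arrays and 5.22, 4.87, 4.59 and 4.96 after G-CSF, so the groups overlapped (log2 fold change 0.11, 95% interval -0.27 to 0.49). The probe set shared by Hjurp, the chaperone of CENP-A, and the other symbol read 7.69, 8.15, 6.004 and 7.66 in the PBS arrays and 8.16, 8.38, 7.95 and 8.56 after G-CSF. G-CSF replicate 3 lay below PBS replicate 2 at this probe set.

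The constitutive network is the inner layer that stays on the centromere through the cell cycle. Cenph read 5.51, 5.06, 4.38 and 4.40 in PBS replicates 1 to 4 and 6.56, 7.16, 6.88 and 7.37 in G-CSF replicates 1 to 4. Every G-CSF array was above every PBS array, with a gap of 1.06 between the nearest pair. The G-CSF arrays averaged 6.99 ± 0.35 (SD, n = 4) and the PBS arrays 4.84 ± 0.55 (SD, n = 4), which differ by 2.15 ± 0.28 SE on the log2 scale (limma adjusted p = 0.0198, with 0.009 to 0.122 over 19 alternatives). Over the 19 alternatives the log2 fold change stayed between 1.67 and 2.38, and the call ended in 6 of them. Among these were the fits without G-CSF replicate 2 (limma adjusted p = 0.0911) and without G-CSF replicate 4 (0.0748). Others were quantile normalization of all arrays (0.0815) or of those other than PBS replicate 3 (0.0535), and the test of all 35556 probe sets (0.122).

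CENP-H works in a subcomplex with CENP-I, CENP-K and CENP-M, whose genes gave other values. Cenpi read 4.94, 4.94, 4.85 and 4.59 in the PBS arrays and 4.95, 4.72, 4.60 and 4.75 after G-CSF. These arrays overlapped fully, and the log2 fold change of -0.08 had a 95% interval of -0.44 to 0.29, which lies below that of Cenph, 1.54 to 2.77. Cenpk spread over the arrays in both groups, from 5.21 to 7.27 after PBS and from 6.05 to 7.18 after G-CSF (0.12, interval -0.81 to 1.06, and 0.36 without PBS replicate 3). Cenpm had 0.53 (interval -0.16 to 1.22). The intervals of Cenpi, Cenpk and Cenpm all lay below that of Cenph; the difference between the genes was not tested. With no detection call at hand, whether Cenpi, or Cenph in the PBS arrays, read above background was not tested. The same holds for the other members, among them Oip5 and, in the PBS arrays, Sgo1, Cenpe and Ska3.

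The other 8 genes of the network had log2 fold changes of 0.01 to 0.86, and none passed. Cenpp (0.86), Cenpw (0.81) and Cenpo (0.66) had the highest of these, and all overlapped between groups. That order rested on PBS replicate 3: without it, Cenpw had 1.14, Cenpn 0.52, Cenpp 0.49 and Cenpo 0.36. Cenpw, which folds like a histone together with CENP-T, ran from 3.99 to 6.36 after PBS and from 5.01 to 7.11 after G-CSF. Its partner Cenpt stayed within 6.68 to 7.38 and 7.06 to 7.63 (0.21). Cenpn, which reads the CENP-A nucleosome, had 0.52, and Cenpl, its partner, 0.42, or 0.09 without PBS replicate 3. Cenpc1, which encodes the scaffold CENP-C, had 0.05 and Cenpq 0.01, and without that array -0.0021 and 0.30. The network's members thus included the highest and the lowest log2 fold change of the whole set.

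**Figure D2:**
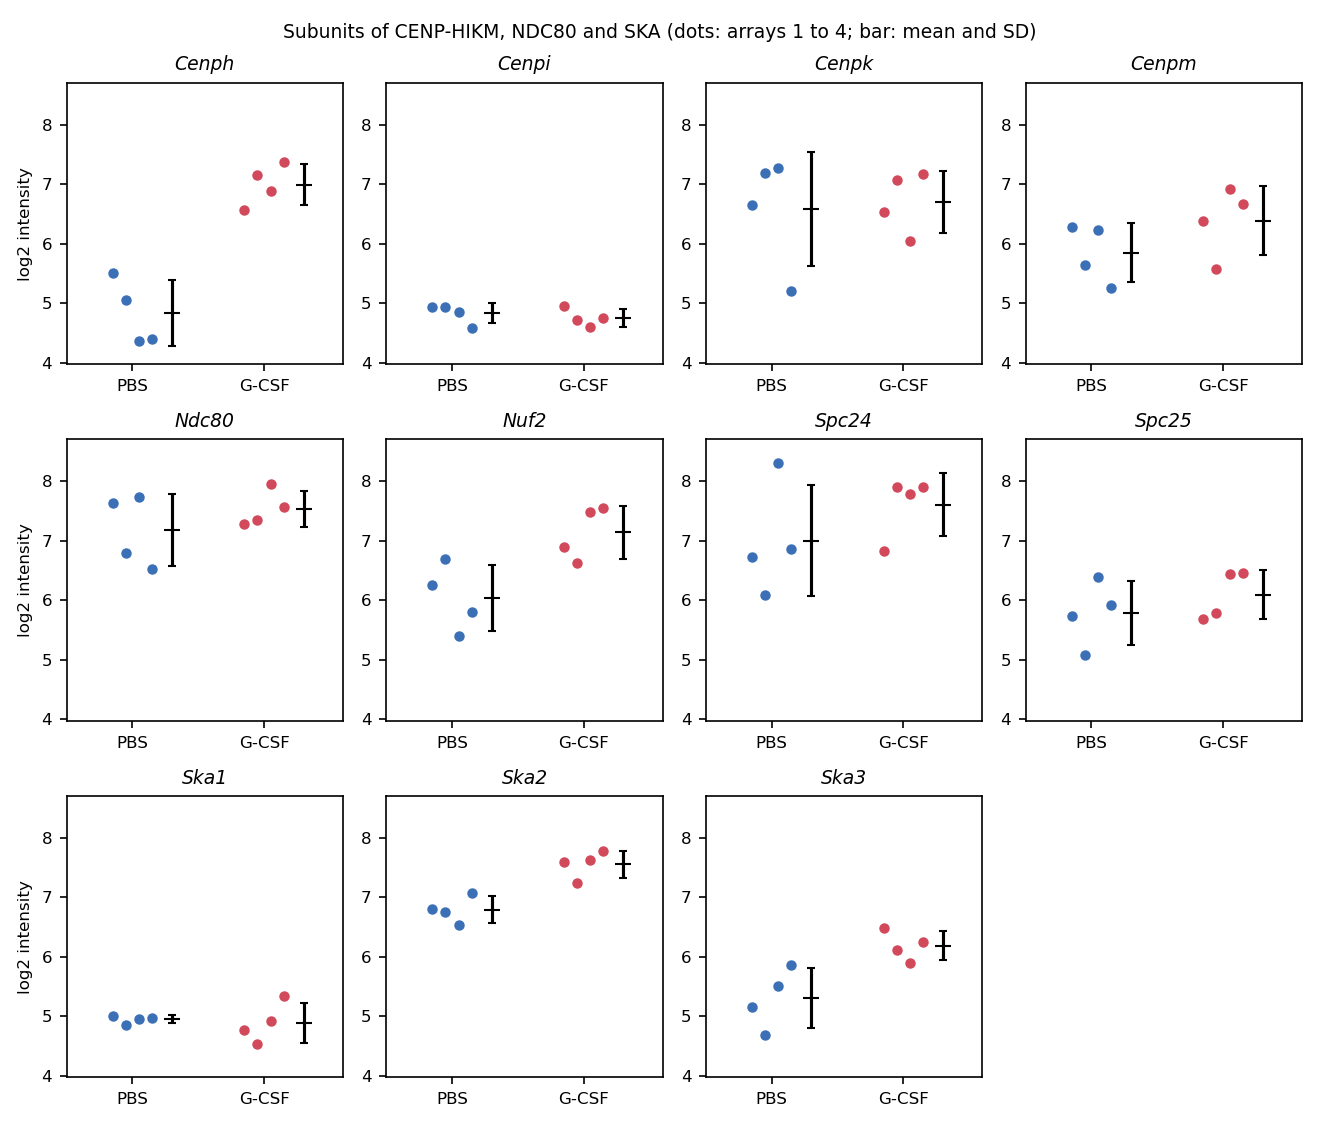
Log2 intensity of the genes of 3 complexes (CENP-H, -I, -K and -M in the top row, NDC80 in the middle row, SKA in the bottom row) by group; each dot is an array in replicate order and the bar is the mean with its SD (n = 4). Cenph, Ska2 and Ska3 separate by group, whereas Cenpi and Ska1 overlap fully.

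The KMN network forms the microtubule-binding core. Its highest member was Nuf2, of the NDC80 complex, with 6.25, 6.70, 5.40 and 5.81 in the PBS arrays and 6.89, 6.62, 7.49 and 7.55 after G-CSF. Only G-CSF replicate 2 lay below a PBS array, replicate 2. The log2 fold change was 1.10 ± 0.30 SE (limma adjusted p = 0.309). The other subunits of the NDC80 complex overlapped further between groups: Spc24 had 0.61, Ndc80 0.36 and Spc25 0.31. Spc24 was highest of all arrays in PBS replicate 3 (8.30), and without that array its log2 fold change was 1.04, that of Ndc80 0.55 and that of Spc25 0.51.

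In the MIS12 complex, which joins the NDC80 complex to the inner network, Dsn1 had 0.89, Mis12 0.46, Nsl1 0.29 and Pmf1 0.21. Dsn1 varied widely among the PBS arrays, from 5.18 to 7.49, and little after G-CSF, from 6.90 to 7.15. Its log2 fold change was 0.56 without PBS replicate 3. Mis12 had 0.16 and Pmf1 0.03 without that array. Zwint, which binds Knl1, was the lowest gene of the network: 6.93, 7.35, 7.01 and 7.22 in the PBS arrays, and 6.95, 7.05, 7.01 and 7.61 after G-CSF. The groups overlapped throughout (0.03, 95% interval -0.40 to 0.46, and -0.0087 without PBS replicate 3).

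The checkpoint genes had a median log2 fold change of 0.56 over 8 genes. Of these, 4 were higher at an unadjusted p under 0.05, against 6.07% of all genes. Bub1, the kinase that recruits other checkpoint proteins to the kinetochore, read 5.24, 6.93, 6.42 and 4.86 in the PBS arrays and 6.71, 7.04, 7.79 and 7.75 after G-CSF. PBS replicate 2 was above G-CSF replicate 1, and PBS replicates 1 and 4 were far lower. The log2 fold change of 1.46 ± 0.43 SE, the second highest of all members, did not pass (limma adjusted p = 0.353). Bub3, the WD-repeat partner of Bub1 and BubR1, read 7.18, 7.81, 7.44 and 7.59 after PBS and 8.02, 7.82, 8.32 and 8.36 after G-CSF. These groups did not overlap, but by a gap of only 0.01 (0.63 ± 0.20 SE, adjusted p = 0.387).

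Bub1b, which encodes BubR1, a subunit of the complex that inhibits the anaphase promoting complex, had 1.12 ± 0.35 SE, with 5.77 to 7.53 after PBS and 7.28 to 8.33 after G-CSF. Its log2 fold change was 0.84 without PBS replicate 3. Zwilch, of the complex that brings dynein to the kinetochore, had 0.53, and its partner Zw10 0.23. The kinase Ttk, at the head of the checkpoint, had 0.35. Mad2l1, the effector that binds Cdc20, had 0.59, and 0.19 without PBS replicate 3, in which it was lowest (6.13). Mad1l1, the anchor of Mad2, was the lowest of the group, with 6.31, 6.70, 7.10 and 6.30 after PBS and 6.86, 6.55, 6.86 and 6.73 after G-CSF. Its groups overlapped (0.14, 95% interval -0.32 to 0.60, and 0.31 without PBS replicate 3).

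Genes of the outer kinetochore, the SKA complex and shugoshin had the highest median among the role groups with more than 1 gene, 0.83 over 6 genes. In 4 of the 6, all G-CSF values lay above all PBS values, against 3.37% of all genes. Sgo1 read 5.49, 5.20, 5.49 and 5.53 after PBS and 6.16, 6.66, 6.53 and 6.32 after G-CSF. The gap between the groups was 0.62, and PBS replicate 3 was not set apart here. The log2 fold change was 0.99 ± 0.18 SE (limma adjusted p = 0.0745), and the gene passed when arrays were weighted (0.0342, with 0.0342 to 0.31 over 19 alternatives). Cenpe read 5.68, 5.70, 5.17 and 5.43 after PBS and 6.14, 6.43, 6.25 and 6.90 after G-CSF. A gap of 0.44 separated the groups (0.93 ± 0.21 SE, adjusted p = 0.206). Cenpf, a large protein of the outer layer that also binds dynein regulators, had 0.61 ± 0.26 SE, with PBS replicate 2 (6.97) among the G-CSF arrays (6.46 to 6.99).

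Within the SKA complex, the products of Ska1, Ska2 and Ska3 assemble together, and their transcripts had log2 fold changes of -0.06, 0.77 and 0.89. Ska2 read 6.80, 6.75, 6.53 and 7.07 after PBS and 7.59, 7.24, 7.63 and 7.77 after G-CSF, without overlap (0.77 ± 0.19 SE, limma adjusted p = 0.241). Ska3 read 5.15, 4.69, 5.50 and 5.86 after PBS and 6.49, 6.12, 5.90 and 6.24 after G-CSF. Its groups were separated by a gap of 0.04 (0.89 ± 0.25 SE, adjusted p = 0.326). Ska1 read 5.01, 4.86, 4.96 and 4.97 after PBS and 4.76, 4.54, 4.92 and 5.34 after G-CSF. Whether Ska1 read above background was not tested, as no detection call was at hand. The Ska1 arrays overlapped (-0.06, 95% interval -0.48 to 0.36). The upper end of that interval reached the lower ends of those of Ska2 (0.36) and Ska3 (0.33). The difference between these genes was not tested. Cenpj, a centriole protein that carries a CENP name without being part of the kinetochore, had 5.96, 5.66, 5.98 and 5.80 after PBS and 5.75, 6.27, 6.01 and 6.16 after G-CSF, with overlap (0.20).

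**Figure D3:**
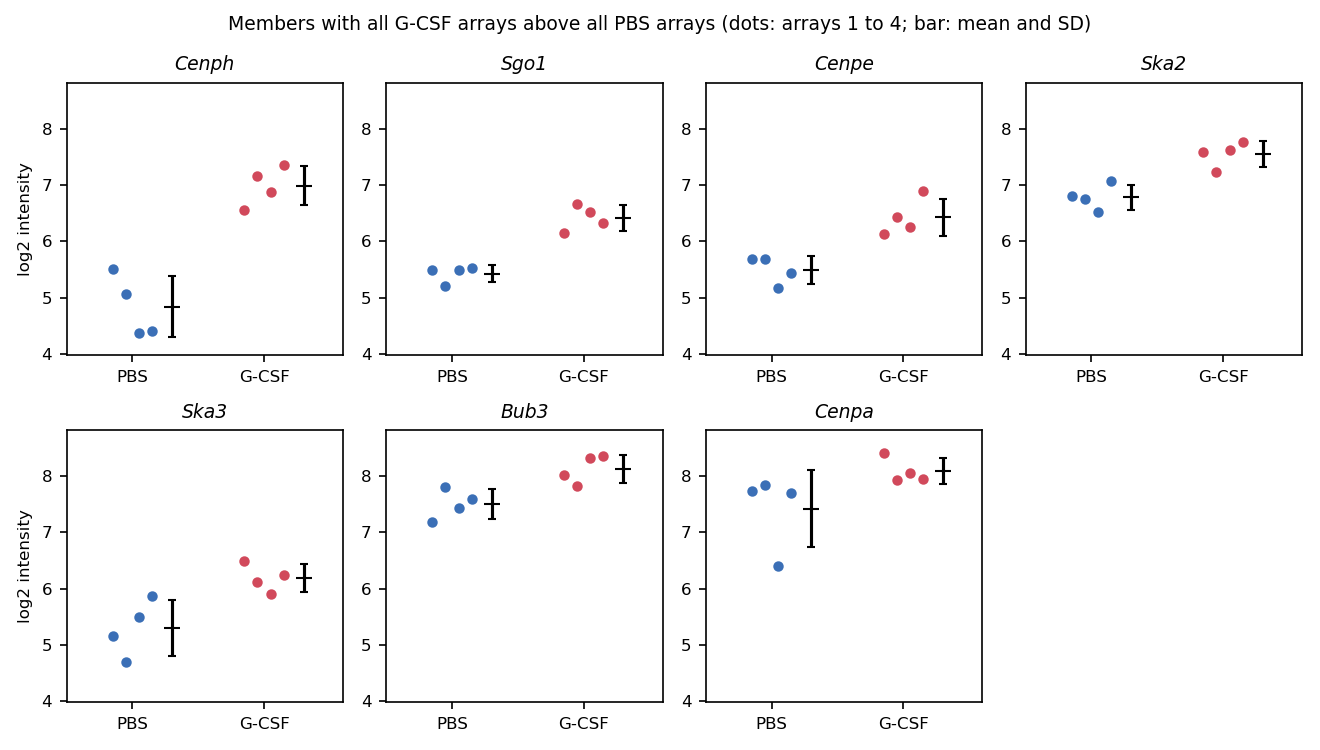
Log2 intensity by group of the 7 genes whose 4 G-CSF arrays all lay above the 4 PBS arrays, ordered by p; each dot is an array in replicate order and the bar is the mean with its SD. The gap is widest for Cenph (1.06) and narrowest for Bub3 (0.01).

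Across arrays, the mean log2 intensity of the 38 members was 6.20, 6.33, 6.04 and 5.98 in PBS replicates 1 to 4 and 6.42, 6.70, 6.68 and 6.92 in G-CSF replicates 1 to 4. The lowest G-CSF array was above the highest PBS array. Of the 38 members, 34 had their lowest value in a PBS array and 32 their highest in a G-CSF array. The highest value fell in G-CSF replicates 1 to 4 for 4, 6, 9 and 13 members. The mean of the neutrophil markers was 8.44, 7.48, 7.46 and 7.26 in PBS replicates 1 to 4. In G-CSF replicates 1 to 4 it was 10.54, 10.32, 8.54 and 9.20. A relation between this list and the members was not tested. PBS replicate 3 held the lowest value of 13 members and the highest of 4. Shares of all genes were not counted for these lowest and highest values. A wider range among PBS than among G-CSF arrays was found in 28 of 38 members and in 73.7% of all genes.

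The groups of genes did not share 1 profile. The constitutive network averaged 6.17, 6.72, 6.22 and 6.80 in G-CSF replicates 1 to 4 and 6.21, 6.11, 5.90 and 5.61 in PBS replicates 1 to 4. It overlapped between groups, since PBS replicate 1 was above G-CSF replicate 1. The checkpoint genes overlapped too, with 6.97 in PBS replicate 2 against 6.78 and 6.86 in G-CSF replicates 1 and 2. The outer kinetochore genes did not, with 5.60 to 5.82 after PBS and 6.26 to 6.58 after G-CSF. Spread was wider in the PBS group: the median SD over members was 0.51 among PBS arrays, 0.42 without replicate 3, and 0.32 among G-CSF arrays. All genes showed the same order, with 0.34 and 0.22.

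**Figure D4:**
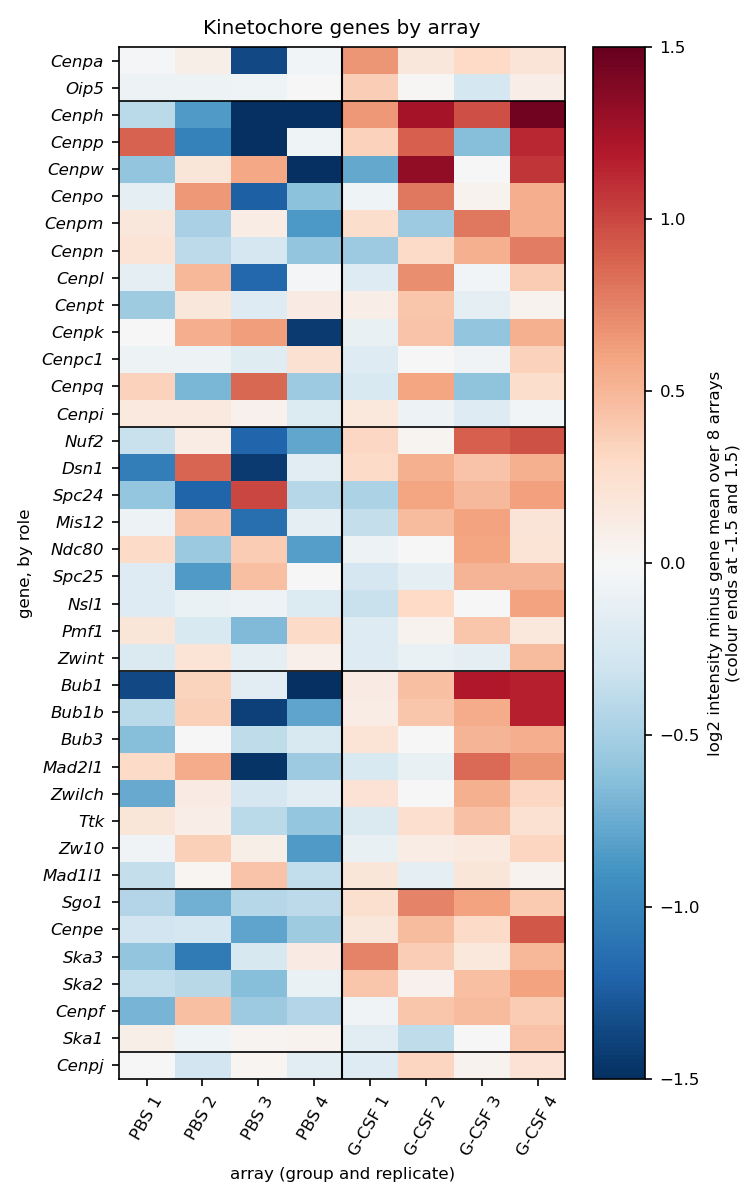
Log2 intensity of each of the 38 genes on each of the 8 arrays, minus the gene's mean over all arrays (colours end at -1.5 and 1.5); black lines part the groups and the roles. Cenph, Sgo1, Cenpe, Ska2 and Ska3 are blue in PBS arrays and red in G-CSF arrays, save for a faint red of Ska3 in PBS replicate 4, while Cenpk, Cenpq and Cenpw differ more within groups.

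**Figure D5:**
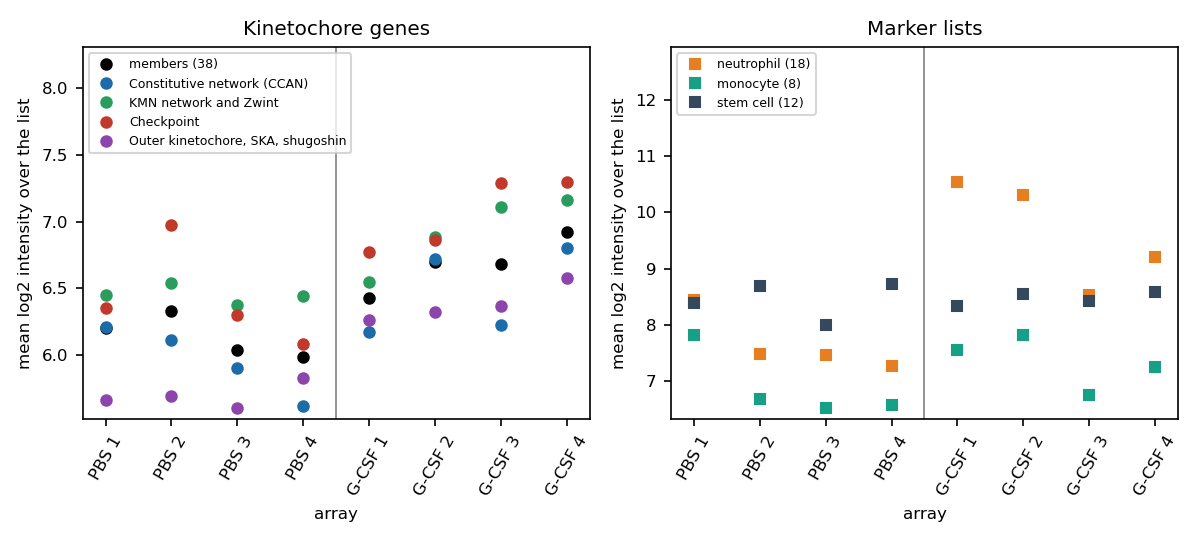
Mean log2 intensity per array of the 38 genes and of 4 role groups (left) and of 3 marker lists (right). Members are highest in G-CSF replicate 4 (6.92), neutrophil markers in G-CSF replicate 1 (10.54).

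Genes that work beside these members were examined as 3 further lists. Of 27 other kinetochore and centromere genes, 25 were above 0 in log2 fold change (median 0.56), and 14 were higher at an unadjusted p under 0.05, against 41.7% and 6.07% of all genes. None passed over all genes by limma, and 0 were lower at either threshold. Those with the lowest p were Knl1, the scaffold of the KMN network, with 0.72 ± 0.19 SE (adjusted p = 0.303), Cdc20, the target of the checkpoint, with 0.70, Birc5, the survivin subunit of the chromosomal passenger complex, with 0.96, and Mis18a, the partner of Oip5, with 0.78. Knl1 read 6.88 to 7.53 after PBS and 7.82 to 8.28 after G-CSF, without overlap. Cdc20 did not overlap either, with 6.45 to 7.01 and 7.08 to 7.58.

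The anaphase promoting complex, which the checkpoint restrains, and its ubiquitin enzymes had a median of 0.17 over 17 genes. Of these, 13 were positive (41.7% of all genes), 4 were higher at an unadjusted p under 0.05 (6.07% of all genes) and 0 passed by limma. The subunit Anapc15 had 0.69 and the ubiquitin-conjugating enzyme Ube2c 0.83, followed by Anapc13 with 1.05 and Anapc2 with 0.57. For cohesin, its regulators and separase the median was 0.08 over 15 genes, of which 9 were positive, 2 were higher at an unadjusted p under 0.05 (the same 6.07% of all genes) and 0 passed. Esco2, the acetyltransferase that locks cohesin in S phase, had 0.83 ± 0.18 SE (adjusted p = 0.204), its groups not overlapping (4.68 to 5.04 after PBS, 5.46 to 6.05 after G-CSF). Cdca5, or sororin, had 0.65, the cohesin ring subunit Rad21 0.66 and Stag2 0.24.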

How the data were processed

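The deposited values are linear intensities, 1 for each probe set on each of 8 arrays (4 PBS, 4 G-CSF). RNA was amplified with NuGen Ovation and biotin-labelled, per the labels' protocols. The submitters' processing notes name RMA, a background correction, normalization and summary of probes; no version was found in the labels. RMA usually returns log2 values, and these reach 16162.54, so log2 was taken. The number of arrays limits the precision, and no detection call was available.

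Of 35556 probe sets, 21789 carried 1 symbol, 1621 several and 12146 none. The brightest single-symbol probe set of each gene was kept (19938 genes). The comparison of groups used R 4.3.3 with limma 3.58.1 (lmFit, eBayes, 2-sided, Benjamini-Hochberg over all genes), with no filter. The script was tested on simulated data. The labels call the samples independent, and p-values measure the spread between them.

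Members and lists were chosen with earlier results of these data known. Values on all arrays are given for members past the threshold, for members at an unadjusted p under 0.05 without overlap, and for the highest and lowest of each role. The 4 genes of lowest p are named per further list. The labels number the replicates and state no pairing, so the samples were compared unpaired. The correlation of deviations of same-numbered arrays was -0.025 to 0.135, which cannot settle whether such arrays were processed together. Alternatives were other moderation, weights, filters, normalizations, probe set choices, a pseudocount of 16, a replicate block, a threshold of 0.1 and each array left out.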

Additional observations from a re-analysis of the deposited data

Results flagged for a closer look

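Among the 76 sets of 4 arrays (38 genes, each in PBS and in G-CSF), 4 held an array that stood far from the other 3, by the gap to its nearest neighbour divided by the range, set against Dixon's 95% critical value for 4 values. Chance gives about 1 in 20. Cenpa was low in PBS replicate 3 (6.40 against 7.71 to 7.85, ratio 0.905). Sgo1 was low in PBS replicate 2 (5.20 against 5.49 to 5.53, ratio 0.863). Spc24 was low in G-CSF replicate 1 (6.82 against 7.79 to 7.91, ratio 0.891). Zwint was high in G-CSF replicate 4 (7.61 against 6.95 to 7.05, ratio 0.86).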

How the results depend on the processing

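Under 19 alternative fits, the member median log2 fold change stayed between 0.37 and 0.56, and 28 of 38 members kept their sign in each. The count of members higher was 0 with all probe sets, after quantile normalization of all arrays and of those other than PBS replicate 3, and with the replicate number as a block (Cenph adjusted p = 0.0531); it was 2 with array weights and 2 at a threshold of 0.1 (Cenph and Sgo1), and 0 to 1 with an array left out. Members lower stayed at 0. Of the 4 PBS arrays, 1 correlated best with the G-CSF array of its own number, which does not settle whether same-numbered arrays were processed together. The block changed the call of no member other than Cenph. Over all genes, 19 were higher and 0 lower, against 37 and 3 with array weights, 7 and 0 after quantile normalization, 0 and 0 with all probe sets, 52 and 0 at a threshold of 0.1, 3 to 30 and 0 to 2 with an array left out, and 15 and 1 after quantile normalization without PBS replicate 3. The median of the other kinetochore genes was 0.40 after quantile normalization. The cause of these shifts was not tested.

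Of the 10 members that changed sign, none passed in any fit. After quantile normalization the log2 fold changes were -0.14 for Cenpc1, 0.084 for Cenpi, -0.065 for Cenpk, -0.20 for Cenpq, -0.046 for Mad1l1, -0.16 for Zwint and 0.095 for Ska1, and without PBS replicate 3 as well they were -0.093 for Cenpc1, -0.00043 for Cenpl, -0.0695 for Pmf1 and -0.094 for Zwint. With the pseudocount Cenpq had -0.00092. With an array left out the ranges were -0.058 to 0.13 for Cenpc1, -0.33 to 0.36 for Cenpk, -0.22 to 0.30 for Cenpq, -0.12 to 0.10 for Zwint, -0.015 to 0.39 for Zw10 and -0.21 to 0.058 for Ska1.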

Other observations

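The protein-coding genes on either side of the 6 members that were separated by group at an unadjusted p under 0.05 were read from the RefSeq table (GRCm38.p6). Of these 12 neighbours, 11 were measured, and in 1 of them, Prr11, every G-CSF array was above every PBS array, against 3.37% of all genes. Prr11, a gene of mitosis that lies beside Ska2, is named here after its value was seen. It read 6.36, 5.86, 5.32 and 5.999 in PBS replicates 1 to 4 and 6.57, 6.99, 7.01 and 7.83 in G-CSF replicates 1 to 4, a log2 fold change of 1.22 ± 0.29 SE (limma adjusted p = 0.225). The listed starts of Prr11 and Ska2 lie 547 bases apart on opposite strands, so the printed Ska2 window, with its 5 CCAAT motifs, sits between them. Whether that window bears on the values of either gene was not tested. Trim37, on the other side of Ska2, had 0.22 ± 0.21 SE with overlap. Next to Cenph, Mrps36 had -0.14 ± 0.23 SE, and Ccnb1, which encodes cyclin B1, was not analysed here.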
